A study of Mus musculus with 18 samples.

Results

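The response of LL/2 tumours to OK-432 was described from 6 of the study's 18 bulk RNA-seq libraries, 3 from treated and 3 from untreated tumours. LL/2, also called Lewis lung carcinoma, is a C57BL/6 mouse line, and the tumours were grown under the skin of C57BL/6J mice. The treated group, LL2_OK432, had OK-432 put into the tumour for 24 hours, and the LL2_Ctrl group had none. All tumours were collected on day 14. The libraries are called Ctrl 1 to 3 and OK432 1 to 3 below. The labels do not say what, if anything, was put into the control tumours, nor whether a group's 3 libraries are 3 different mice. The p-values therefore measure the spread between these libraries, part of which may be technical. The other 12 libraries are the same 2 treatments of tumours from the BALB/c colon carcinoma line CT26 and from CT26-NY-ESO-1 (CT26NYESO1), and they were used to test whether the LL2 response differed and, where this is said, as further libraries.

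OK-432 is a penicillin-treated, freeze-dried preparation of Streptococcus pyogenes. Bacterial products are sensed by Toll-like receptors and other innate receptors, which switch on the transcription factor NF-kappaB and, through it, cytokines and chemokines. Neutrophils are the first blood cells to enter a site of bacterial inflammation: granulocyte colony-stimulating factor, the product of Csf3, drives their production, and chemokines that bind the receptor CXCR2 draw them into the tissue. Interferons, the other branch of innate signalling, switch on a separate set of genes that restrict viruses and present antigen.

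Values were deposited as TPM, in which each transcript's length-corrected abundance is a share of its library, and which keeps no record of sequencing depth. Of 55291 genes, 14736 had at least 1 TPM in at least 3 of the 6 libraries and were tested with limma on log2(TPM + 1). All log2 changes below are treated minus control on that scale, which understates the change of genes at low TPM. The tissue name was checked against its markers. The lung epithelial genes Nkx2-1, Sftpa1 and Scgb1a1 were listed at 0 in all 6 libraries, and the surfactant genes Sftpb and Sftpc reached at most 0.116 TPM. Napsa, a protease of lung and kidney epithelium, was at 4.87 to 12.1 TPM, while the mesenchymal gene Vim was at 2972 to 3394 TPM and the keratin Krt8 at 146 to 261 TPM.

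The libraries were alike. Pearson correlations across genes, which are not independent replicates, were 0.987 to 0.994 within a group and 0.983 to 0.993 between groups. OK432 3, Ctrl 2 and OK432 1 stood apart from the rest. OK432 3 had the most extreme score on the first principal component (-25.8, against -5.07 to 17.8 in the other 5), which took 36.0% of the variance. It also had the highest summed skeletal muscle TPM, at 499 against 30.4 to 224, and the highest summed mast cell, basophil and eosinophil TPM, at 140 against 15.8 to 53.8. It had the highest mean level in 22 of the 34 gene lists used here. Ctrl 2 had the highest mean level in 11, among them every interferon and MHC presentation list. OK432 1 had the lowest mean level in 17 and the most extreme score on the second principal component (-20.9, against -4.11 to 12.8), which took 23.8% of the variance. What these tissue and library differences contributed to the results was not tested.

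The treated LL2 tumours held more transcript of Csf3 and of several genes that neutrophils express. At a Benjamini-Hochberg adjusted p under 0.05 over all tested genes, 9 genes were higher (0.0611% of those tested) and 2 were lower (0.0136%). Leaving aside Kctd12, which is treated below with both lower genes, the 8 higher genes were Csf3, S100a8, Lcn2, Retnlg, Hcar2, Slpi, Stfa2l1 and G0s2. In each of the 8 all 3 treated libraries lay above all 3 controls, as they did in 4.8% of all tested genes. The 8 were chosen by a test of these same values, so the lack of overlap adds no support. Retnlg and Stfa2l1 were under 1 TPM in all controls, so the filter alone kept their groups apart. The mean TPM of the 8 genes rose between 5.39-fold (G0s2) and 20.1-fold (Lcn2).

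Csf3, the granulocyte growth factor, was at 0.434, 1.55 and 1.50 TPM in the controls and at 12.7, 10.1 and 13.8 TPM after OK-432. The 3 treated libraries were close to each other and far above the highest control. Its log2 change was 2.65 ± 0.234 (SE; limma adjusted p = 0.0119), and the mean TPM was 10.5-fold higher. The gene lies at chr11:98701263-98703629 on the plus strand (GRCm38). Its receptor Csf3r, which neutrophils carry, was at 4.46, 8.50 and 6.05 TPM in the controls and 8.73, 10.9 and 13.8 TPM in the treated libraries. The groups did not overlap, though the highest control was just under the lowest treated library, and the log2 change of 0.74 did not pass the test (limma adjusted p = 0.928).

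S100a8 encodes a subunit of calprotectin, an antimicrobial complex and an abundant cytosolic protein of neutrophils. It was at 5.22, 8.79 and 5.26 TPM in the controls and 41.0, 39.3 and 62.3 TPM in the treated libraries, a log2 change of 2.71 ± 0.244 (limma adjusted p = 0.0356). Its partner S100a9 was at 8.10, 13.6 and 7.15 TPM against 73.5, 78.9 and 130 TPM. Every treated library was over 5 times the highest control for S100a9, yet its log2 change of 3.16 ± 0.321 had a limma adjusted p of 0.141. The robust fit gave S100a9 5.28 degrees of freedom for its spread and S100a8 6.39, and with plain empirical Bayes the adjusted p of S100a9 was 0.0489.

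Lcn2 encodes lipocalin 2, which starves bacteria of iron by binding their siderophores. It was at 0.191, 1.16 and 0.524 TPM in the controls and 7.87, 12.2 and 17.6 TPM in the treated libraries (log2 change 3.04 ± 0.309, limma adjusted p = 0.0347). Slpi, an inhibitor of neutrophil elastase, was at 2.18, 1.90 and 2.16 TPM and then 8.33, 10.7 and 17.6 TPM (2.04 ± 0.230, limma adjusted p = 0.0356). For both genes OK432 1 was the lowest and OK432 3 the highest treated library, and all 3 stood clear of the controls. Hcar2, a receptor for beta-hydroxybutyrate and niacin found on neutrophils and macrophages, was at 2.16, 2.40 and 1.59 TPM and then 9.32, 11.5 and 18.6 TPM (2.17 ± 0.231, limma adjusted p = 0.0347).

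Retnlg, a resistin-like gene of neutrophils, was at 0.915, 0.792 and 0.267 TPM in the controls and 5.60, 4.23 and 6.41 TPM after OK-432 (1.96 ± 0.201, limma adjusted p = 0.0203). Stfa2l1 belongs to the stefin A cysteine protease inhibitors, a cluster of near-identical genes among which reads may be split. Its controls were at 0.517 and 0.353 TPM with Ctrl 3 listed at 0, and its treated libraries at 2.35, 3.62 and 3.25 TPM (1.67 ± 0.204, limma adjusted p = 0.0387). G0s2, an inhibitor of the lipase that breaks down stored fat, was at 1.14, 1.48 and 1.01 TPM and then 4.57, 5.80 and 9.21 TPM (1.73 ± 0.219, limma adjusted p = 0.0486). All 3 genes were low in absolute terms, with under 10 TPM in every library.

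**Figure D1:**
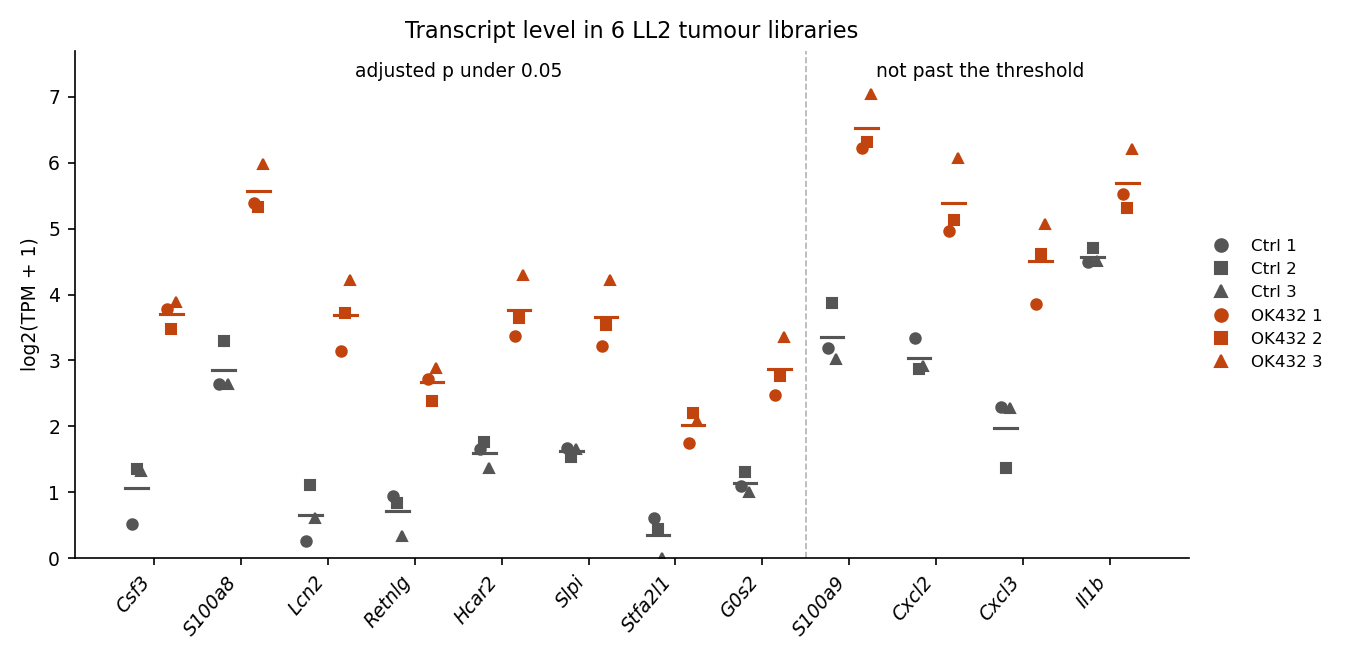
Level of 12 genes in each LL2 library as log2(TPM + 1), with grey symbols for Ctrl 1 to 3, orange symbols for OK432 1 to 3 and short lines for group means. The 8 genes left of the dashed line passed the test and the 4 to its right did not; in all 12 the 3 treated libraries lie above the 3 controls.

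The other 3 called genes were on-off patterns that set them apart from the rest. Kctd12, an auxiliary subunit of GABA-B receptors, was listed at 0 in all 3 controls and at 17.7, 19.2 and 19.5 TPM in the treated libraries (limma adjusted p = 1.21e-06). Mir5130 was at 12.4, 12.0 and 5.84 TPM in the controls and at 0.0131, 0.00113 and 0.00132 TPM in the treated libraries (limma adjusted p = 0.00311). In the GENCODE M21 annotation Mir5130 (chr14:102982549-102982632, minus strand) lies wholly within the 5' untranslated part of the single exon of Kctd12 (chr14:102976581-102982637, minus strand). The pair exchanged values in both treatments and all tumour types: in 12 of the 18 libraries Kctd12 was at 17.7 to 32.7 TPM and Mir5130 near 0, and in the other 6 Kctd12 was listed at 0 and Mir5130 was at 5.84 to 14.1 TPM. Those 6 libraries were the 3 LL2 controls, 2 CT26 libraries and 1 CT26NYESO1 library. Eif3j2 was listed at 0 in all 3 treated libraries and was at 13.9, 13.9 and 13.04 TPM in the controls. Reads may be shared with Eif3j1, a copy of nearly the same sequence, whose controls were at 49.6, 51.1 and 49.8 TPM and whose treated libraries were at 53.05, 50.2 and 54.5 TPM. Eif3j2 is named because it was called, although other genes of its chromosome are not described.

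These 3 genes also set how many others were called, because the adjustment depends on the ranks of all p-values. Without Kctd12, Mir5130 and Eif3j2, an alternative chosen after the data were seen, Csf3 was the 1 gene called higher and 0 genes were called lower. At an unadjusted p under 0.05, 382 of the 14733 genes were higher and 347 lower. If no gene differed, a share of about 0.05 of the genes would fall under this threshold, so these counts are not a result. Leaving out 1 library at a time also cost calls, so that 1 to 13 genes were called higher and 2 or 3 lower. Csf3 was called in 4 of these 6 fits, not without Ctrl 3 (limma adjusted p = 0.0635) and not without OK432 1, Stfa2l1 in 0 of them and each of the other 6 of the 8 genes in 2. Outside the leave-one-out fits, the number called higher was 3 with a pseudocount of 0.1, 1 with no filter, 5 with plain empirical Bayes and 2 (Csf3 and Slc13a3) in the fit over all 18 libraries, which did not call Kctd12 or Mir5130. In the leave-one-out fits the log2 change of Csf3 was 2.37 to 2.79, that of Lcn2 2.78 to 3.31 and that of S100a8 2.50 to 2.93, and with a pseudocount of 0.1 those of Csf3 and Lcn2 were 3.44 and 4.30. Without OK432 3, 13 genes were called higher, among them Cxcl2, Il1b and Clec4d.

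**Figure D2:**
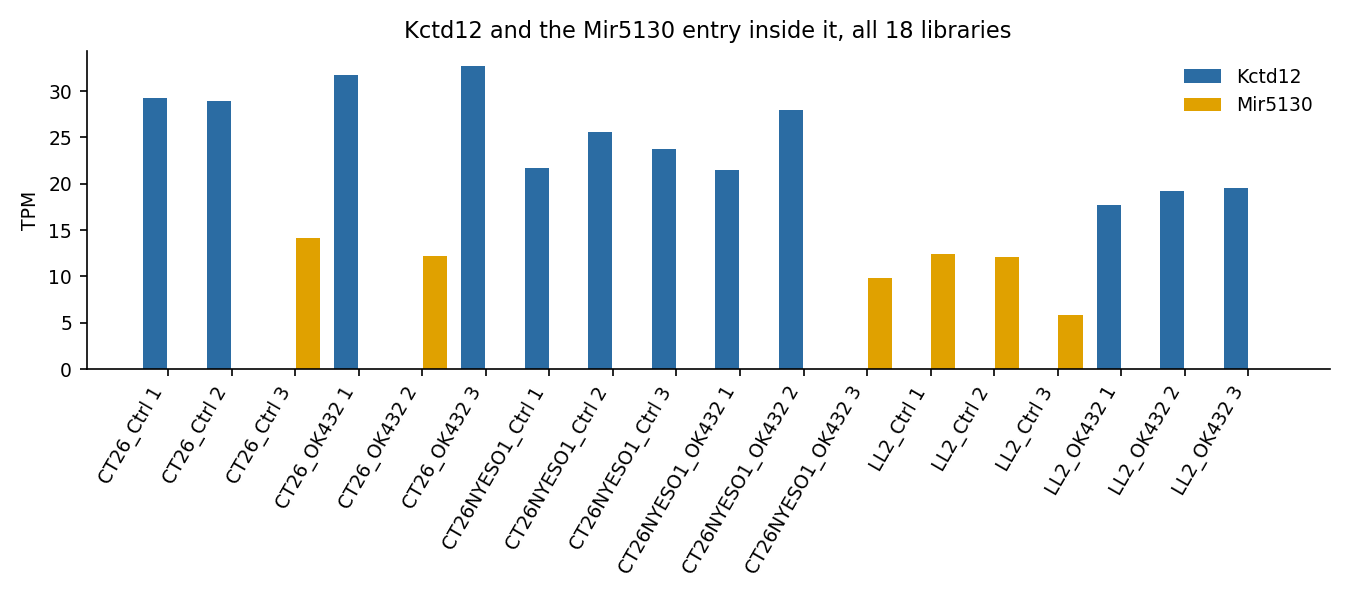
TPM of Kctd12 (blue bars) and Mir5130 (yellow bars) in each of the 18 libraries. Each library has 1 of the 2 bars, and the 3 LL2 controls are the 1 group in which all libraries have the Mir5130 bar.

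A wider description, without a test, took the genes whose 3 treated values all lay above, or all below, the 3 controls with a log2 change of at least 1. By it, 23 genes were higher (0.156% of those tested) and 5 lower (0.0339%). Among the higher, Kctd12, Retnlg, Stfa2l1, Il1f9 and Mirt2 were under 1 TPM in all controls. Among the lower, Eif3j2 and Mir5130 were under 1 TPM in all treated libraries. Each of these genes reached the filter only through the group where it was high, so its groups had to be separated. Besides the called genes, the 14 higher ones included the chemokines Cxcl2, Cxcl3, Cxcl5 and Ccl3, the cytokine Il1b, S100a9, Saa3, Nos2, Ptgs2 and Slc13a3. The 5 lower ones were Eif3j2, Mir5130, Ly6c2, Ifit1bl1 and Trex1. With 3 libraries against 3 there are 20 assignments, of which 1 puts all treated values above all controls and 1 puts them below. An exact permutation test of a single gene therefore cannot go below p = 0.1.

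The CXCR2 ligands formed the list with the largest median change. Of 5 tested members of the neutrophil chemokine list, 0 passed the test, 3 had all treated libraries above all controls (4.8% over all tested genes), and the median log2 change was 1.27, beside -0.01 over all tested genes. Without 1 library this median was 0.97 (without OK432 3) to 1.54. Cxcl2 was at 9.14, 6.30 and 6.51 TPM in the controls and 30.2, 33.9 and 66.4 TPM in the treated libraries (2.35 ± 0.323, limma adjusted p = 0.406). Cxcl3 was at 3.90, 1.58 and 3.83 TPM and then 13.5, 23.4 and 32.6 TPM (2.53 ± 0.394, limma adjusted p = 0.479). Both had their highest value in OK432 3, and in both the lowest treated library was over 3 times the highest control. Cxcl5 was at 6.20, 11.1 and 9.10 TPM against 17.0, 18.6 and 34.0 TPM, also without overlap. Cxcl1 did overlap: the controls were at 28.3, 48.8 and 28.6 TPM and the treated libraries at 77.9, 45.5 and 131 TPM. Their receptor Cxcr2 was at 0.689, 1.10 and 0.874 TPM and then 2.50, 2.02 and 3.05 TPM (0.89 ± 0.165, limma adjusted p = 0.415).

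The promoters of Cxcl2 and Cxcl3 are printed because these 2 genes of the chemokine cluster on chromosome 5 had the largest changes among the chemokines of the list and share 1 sequence. These are the 250 bases before the annotated start in RefSeq on GRCm38.p6, chr5:90903649-90903898 for Cxcl2 and chr5:90785851-90786100 for Cxcl3, both on the plus strand. Capitals mark GGGAATTTCC, a form of the NF-kappaB consensus that was read from the Cxcl2 promoter.
Cxcl2: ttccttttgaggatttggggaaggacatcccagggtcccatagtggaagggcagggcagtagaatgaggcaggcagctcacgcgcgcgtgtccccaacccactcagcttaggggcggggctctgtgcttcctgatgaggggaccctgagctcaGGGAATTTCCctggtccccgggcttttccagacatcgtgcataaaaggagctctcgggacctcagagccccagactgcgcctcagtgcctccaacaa
Cxcl3: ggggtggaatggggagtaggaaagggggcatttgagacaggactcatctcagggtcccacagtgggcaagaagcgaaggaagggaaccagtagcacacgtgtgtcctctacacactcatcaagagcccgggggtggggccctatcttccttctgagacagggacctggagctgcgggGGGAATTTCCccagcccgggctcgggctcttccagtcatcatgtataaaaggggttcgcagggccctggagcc
Searched on both strands, GGGAATTTCC was found in the promoters of 3 of the 5 neutrophil chemokines with a RefSeq promoter (Cxcl1, Cxcl2 and Cxcl3), and in 12 (0.117%) of the 10237 tested genes with one. Because the sequence was read from Cxcl2, and Cxcl3 was printed for sharing it, these 2 matches were fixed in advance. The contrast between the 2 shares therefore adds no support. The general NF-kappaB consensus was in the same 3 and in 10.6% of all, and in 0 of the 7 called genes with a RefSeq promoter. A match describes these letters in this window and is not a measured binding site.

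Neutrophil transcripts as a group were higher in every treated library. Of 33 listed neutrophil genes, 31 were in the table and 21 were tested. Of these, 3 passed the test (S100a8, Retnlg and Stfa2l1, all higher), beside 0.0611% called higher over all tested genes. All treated libraries lay above all controls in 15 of the 21 (4.8% over all tested genes), and 0 had all below. Retnlg, Stfa2l1, Mmp8 and Asprv1 were under 1 TPM in all controls and reached the filter only through the treated libraries, so they had to differ. Of the other 17, S100a8 passed the test, 11 were separated, all higher, and the median log2 change was 0.74. The mean log2(TPM + 1) of these 17 was 2.27, 2.62 and 2.33 in the controls and 3.09, 3.10 and 3.62 in the treated libraries. Over the 21 the median was also 0.74, it was 0.63 to 0.89 without 1 library, and it was 0.56 with no filter. A list mean in bulk tissue cannot tell more neutrophils from more RNA per neutrophil.

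Transcripts of receptors and enzymes of mature neutrophils were measured alongside those of the granule proteins made earlier in their development. Fpr1, the receptor for bacterial formyl peptides, was at 2.64, 4.06 and 2.72 TPM in the controls and 5.13, 5.92 and 7.45 TPM after OK-432 (log2 change 0.80), and Hdc, which makes histamine, was at 2.25, 4.81 and 2.95 TPM and then 8.55, 9.58 and 14.8 TPM (1.47). Both are list members outside the rule for named genes and were chosen after their values were seen. Mmp8, a collagenase of neutrophil granules, was at 0.656, 0.781 and 0.664 TPM and then 1.21, 1.09 and 1.59 TPM. The granule proteins, most of which are transcribed in bone marrow precursors, were a second list, with 15 of 16 genes in the table and 5 tested. Lcn2 passed the test, beside 0.0611% called higher over all tested genes. Mmp8 was the other 1 with separated groups (4.8% over all tested genes lay above). The median log2 change of the 5 was 0.43, or 0.16 without Mmp8 and 0.13 without OK432 3. Mmp9, Chil3 and Cybb, which macrophages also express, overlapped, with log2 changes of 0.72, -0.54 and -0.40. Of the members under the filter, Elane and Ms4a3 were listed at 0 in all 6 libraries, Cd177 was highest in Ctrl 2 at 1.004 TPM, and Mpo, Prtn3, Ctsg, Ltf, Camp, Ngp and Olfm4 reached at most 0.482 TPM. Ly6g, the usual surface marker of mouse neutrophils, was under 1 TPM in all 6, at 0, 0.212 and 0.223 TPM in the controls and 0.374, 0.0818 and 0.548 TPM in the treated libraries.

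Haemoglobin and platelet transcripts were measured beside these genes, since blood in a tumour carries neutrophils. Their summed TPM was 128 to 339 in the controls and 157 to 464 in the treated libraries, and 0 of 8 tested genes had separated groups. Their part in the neutrophil result was not tested.

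Csf3 was the single growth factor gene that passed the test, beside 0.0611% called higher over all tested genes. In the list of 15 neutrophil growth factors and receptors, 9 were tested, and the median log2 change was 0.02 (-0.09 to 0.07 without 1 library). Csf1, the macrophage growth factor, was at 116 to 123 TPM in the controls and 111 to 141 TPM in the treated libraries. Csf2 was under 1 TPM in all 6 libraries, at 0.0949, 0.367 and 0.166 TPM against 0.578, 0.494 and 0.554 TPM. Il17a, a T cell cytokine that induces Csf3 in many tissues, was listed at 0 in all 6 libraries.

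Among proinflammatory cytokines, Il1b had separated groups and Tnf did not. Of 12 tested cytokine genes 0 passed the test, 6 had all treated libraries above all controls (4.8% over all tested genes) and 0 below (5.28%), with a median log2 change of 0.48. Il1b was at 21.6, 25.1 and 21.7 TPM in the controls and 45.2, 38.7 and 73.3 TPM after OK-432 (1.12 ± 0.233, limma adjusted p = 0.806). Il6 was at 1.17, 1.26 and 1.43 TPM and then 2.27, 2.19 and 2.47 TPM (0.53), and Ccl3 at 3.75, 4.61 and 3.02 TPM and then 7.20, 12.5 and 18.9 TPM (1.45). In these 3 genes no treated library fell as low as a control. Tnf was at 5.02, 7.42 and 5.51 TPM against 6.10, 6.23 and 6.72 TPM, all 3 treated values lying within the control range (0.09 ± 0.139, limma adjusted p = 0.980).

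The receptors through which streptococcal products are sensed went both ways. Of 25 tested sensor and adaptor genes 0 passed the test and 4 had separated groups, all higher (4.8% over all tested genes), with a median log2 change of -0.03 (-0.09 to 0.04 without 1 library). Clec4e and Clec4d, C-type lectins of myeloid cells that are also on the neutrophil list, were 2 of the 4, at log2 changes of 0.85 and 0.86. Tlr1, a partner of TLR2, was at 7.42 to 12.9 TPM in the controls and 7.98 to 9.31 TPM in the treated libraries. Of 18 tested NF-kappaB subunits and feedback genes 0 passed and 3 were separated, all higher (4.8% over all tested genes). Their median log2 change was 0.10 (0.05 without OK432 3). Relb, a subunit, was at 22.99, 26.1 and 26.1 TPM and then 27.4, 30.2 and 33.4 TPM. The inhibitor Nfkbia was at 122, 136 and 116 TPM and then 178, 134 and 216 TPM, with OK432 2 within the controls.

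Acute phase and antimicrobial genes held 2 of the called genes, Lcn2 and Slpi, among 8 tested (0.0611% over all tested genes were called higher). Saa3, the serum amyloid A made by inflamed tissue, had a wide spread: 8.69, 7.98 and 1.84 TPM in the controls and 20.0, 26.1 and 101 TPM in the treated libraries. Its log2 change of 2.62 ± 0.841 did not pass the test (limma adjusted p = 0.928), and without OK432 3 it was 1.93. The iron oxidase Cp was at 10.4, 8.70 and 7.50 TPM and then 12.7, 11.6 and 20.6 TPM.

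Several enzymes by which myeloid cells restrain T cells had higher values in every treated library than in any control, without passing the test. Nos2, the inducible nitric oxide synthase, was at 2.82, 3.26 and 3.17 TPM in the controls and 6.37, 6.41 and 13.2 TPM after OK-432 (1.17 ± 0.245, limma adjusted p = 0.630). Ptgs2, the cyclooxygenase of inflammation, was at 27.6, 26.4 and 22.1 TPM and then 70.4, 40.0 and 108 TPM (1.38 ± 0.376, limma adjusted p = 0.928). Arg2 was at 0.782, 0.645 and 0.583 TPM and then 1.32, 1.99 and 3.60 TPM. It reached the filter only through the treated libraries, so its groups had to differ. The groups of these 3 genes did not overlap, and OK432 3 was the highest library in each. Arg1, the other arginase, overlapped at 69.9, 45.5 and 70.9 TPM against 77.9, 61.6 and 117 TPM, and so did Cd274, which encodes PD-L1, at 6.36, 14.6 and 9.65 TPM against 8.60, 11.0 and 9.57 TPM. Over the 18 tested genes of the suppressive and checkpoint list 0 passed and the median log2 change was 0.12 (0.20 without OK432 1). Over the 17 other than Arg2 the median was 0.06, and 2 of them had separated groups, both higher (4.8% over all tested genes).

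Slc13a3, a transporter of dicarboxylates that carries itaconate into cells, was at 3.80, 4.87 and 2.87 TPM in the controls and 8.78, 13.5 and 20.0 TPM in the treated libraries. Its log2 change was 1.59 ± 0.287, with a limma adjusted p of 0.479 in the fit of the LL2 libraries. It was 0.0198 in the fit over all 18, which gives each gene 1 spread for all tumour types. Acod1, the enzyme that makes itaconate, was at 3.06, 8.93 and 4.36 TPM and then 7.63, 10.9 and 11.4 TPM, with Ctrl 2 above OK432 1 (0.85 ± 0.337, limma adjusted p = 0.928).

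Interferon-stimulated genes lay in the opposite direction, but the groups overlapped. Of 40 tested type I interferon-stimulated genes 0 passed the test, 1 (Ifit1bl1) had all treated libraries below all controls, as did 5.28% of all tested genes, and 0 had all above. All 40 log2 changes were below 0, as were 55.5% over all tested genes, and their median was -0.98. The mean log2(TPM + 1) of the 40 was 4.22, 5.54 and 5.09 in the controls and 3.86, 4.62 and 3.62 in the treated libraries. Ctrl 1 thus lay below OK432 2. In 39 of the 40 genes Ctrl 1 was below OK432 2, and in 38 of the 40 both Ctrl 2 and Ctrl 3 were above all 3 treated libraries. These genes move as a block within a library, so the 40 are not 40 independent observations. Without Ctrl 1 their median change was -1.35 and without Ctrl 2 it was -0.64, and in neither fit did any of them pass.

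Ifit1, which binds viral RNA that lacks a self cap, was at 13.8, 49.7 and 35.7 TPM in the controls and 9.37, 21.7 and 5.17 TPM after OK-432 (-1.41 ± 0.705, limma adjusted p = 0.928). Isg15, a ubiquitin-like modifier, was at 40.4, 129 and 100 TPM and then 30.2, 66.1 and 20.3 TPM (-1.20 ± 0.646). Irf7, the factor that amplifies interferon production, was at 30.6, 99.7 and 70.2 TPM and then 24.7, 42.1 and 17.8 TPM (-1.15 ± 0.562). The 3 genes shared 1 order of libraries, with Ctrl 2 and Ctrl 3 highest, OK432 2 next, then Ctrl 1, and OK432 3 lowest. Trex1, a cytosolic DNA exonuclease that is itself inducible by interferon, did have separated groups, at 6.94, 13.6 and 11.4 TPM against 3.97, 6.07 and 2.86 TPM (-1.14 ± 0.288, limma adjusted p = 0.917). The Schlafen genes Slfn5 and Slfn8, members of a multigene family, were also separated, with log2 changes of -0.82 and -0.91. Trex1, Slfn5 and Slfn8 were named by a rule that takes only genes with separated groups. Their lack of overlap was thus fixed by the choice and adds no support. Over all tested genes, 5.28% had all treated libraries below all controls.

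The promoters of Ifit1 and Isg15 are printed because these 2 genes show the shared order of libraries and carry the sequence through which interferon acts. These are again the 250 bases before the RefSeq start on GRCm38.p6, chr19:34640639-34640888 on the plus strand for Ifit1 and chr4:156200819-156201068 on the minus strand for Isg15. Capitals mark the core of the interferon-stimulated response element, which is GAAA, any 2 bases and GAAA again, on either strand, where overlapping matches run together.
Ifit1: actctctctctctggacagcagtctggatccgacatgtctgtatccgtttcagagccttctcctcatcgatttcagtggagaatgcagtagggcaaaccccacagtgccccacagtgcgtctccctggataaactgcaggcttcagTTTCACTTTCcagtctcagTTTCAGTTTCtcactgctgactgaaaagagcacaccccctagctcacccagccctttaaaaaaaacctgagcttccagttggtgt
Isg15: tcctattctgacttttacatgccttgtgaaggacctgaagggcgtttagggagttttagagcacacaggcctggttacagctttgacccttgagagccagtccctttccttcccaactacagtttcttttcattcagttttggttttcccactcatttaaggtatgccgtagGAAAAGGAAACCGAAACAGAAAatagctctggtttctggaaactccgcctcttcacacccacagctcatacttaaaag
Ifit1 held 2 matches and Isg15 held 3. The motif was in the promoters of 12 of the 30 type I interferon-stimulated genes with a RefSeq promoter (40%), of 12 of 17 interferon-gamma-induced genes (70.6%), and of 3.28% of all 10237 tested genes with one. It was in the promoter of 1 of the 18 genes of the separated and at least 2-fold higher group that had one (5.56%).

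**Figure D3:**
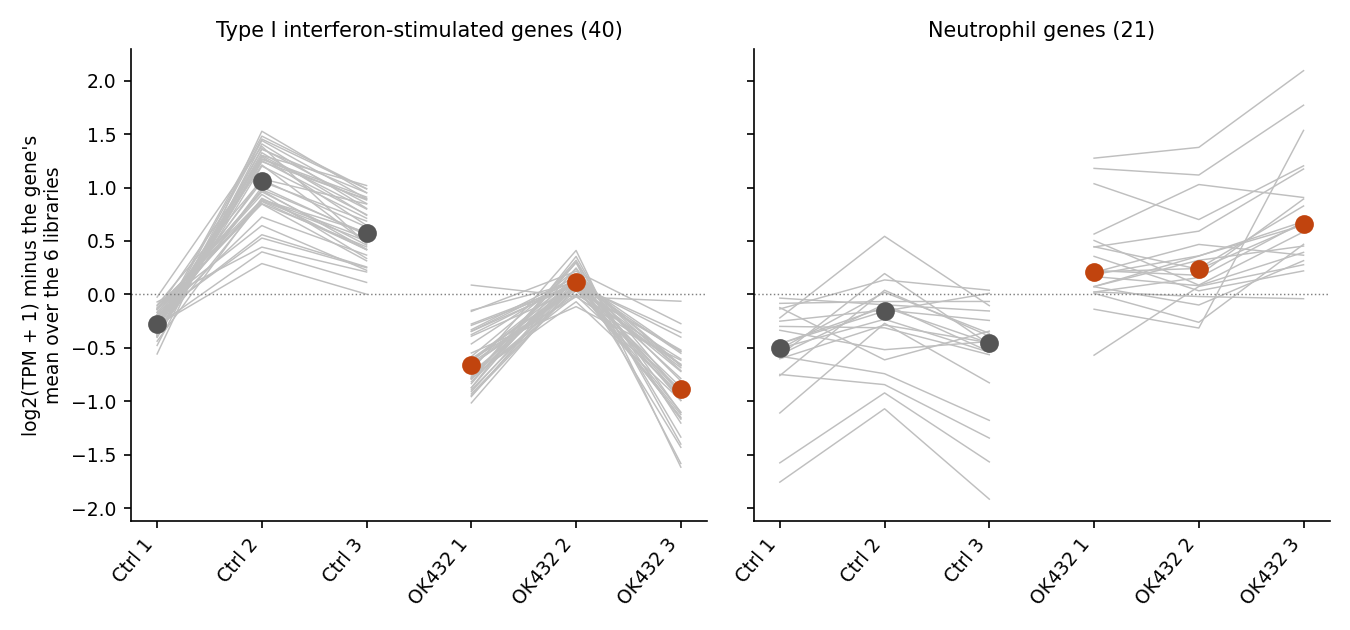
Each grey line joins 1 gene's values across the 3 libraries of a group, as log2(TPM + 1) minus that gene's mean over the 6 libraries, for 40 interferon-stimulated genes (left) and 21 neutrophil genes (right); large points are medians. The interferon-stimulated genes move together from library to library in both groups with Ctrl 1 below OK432 2, while the medians of the neutrophil genes are higher in all 3 treated libraries than in all 3 controls.

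Genes induced by interferon gamma also had their highest mean level in Ctrl 2, but their lowest in OK432 1. Of 26 tested genes 0 passed and 24 had a log2 change below 0, beside 55.5% over all tested genes. The median was -0.77, or -0.34 without Ctrl 2 and -1.07 without Ctrl 1. Cxcl10, a chemokine that draws T cells, was at 32.2, 113 and 69.3 TPM in the controls and 19.3, 45.6 and 20.7 TPM in the treated libraries (-1.23 ± 0.596, limma adjusted p = 0.928). Cxcl9 was at 4.77, 32.3 and 6.87 TPM and then 1.17, 9.23 and 7.67 TPM, and Gbp2, a guanylate-binding protein that attacks intracellular microbes, was at 37.0, 113 and 56.1 TPM and then 24.0, 50.4 and 36.2 TPM. For Cxcl9 both OK432 2 and OK432 3 were above Ctrl 1 and Ctrl 3. Irf1 was the 1 member with separated groups, at 92.4, 123 and 103 TPM against 83.9, 90.0 and 68.6 TPM (-0.39 ± 0.129, limma adjusted p = 0.928). Over all tested genes, 5.28% had all treated libraries below all controls.

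The interferons themselves were at the edge of detection. Ifnb1 was at 0.0624, 0.333 and 0.187 TPM in the controls and at 0.103 TPM in OK432 2, and was listed at 0 in OK432 1 and OK432 3. Ifng was at 0.241, 0.343 and 0.171 TPM and then 0.164, 0.196 and 0.238 TPM. The interferon receptor Ifnar2 was at 32.8, 33.2 and 31.3 TPM against 33.8, 34.3 and 35.0 TPM, and 0 of the 11 tested interferon, receptor and signalling genes passed the test.

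Antigen presentation genes also had lower means after OK-432 without separated groups. All 18 tested MHC class I presentation genes had a log2 change below 0, with a median of -0.28. All 10 tested class II presentation genes did so with a median of -0.50, beside 55.5% below 0 over all tested genes. In either list 0 passed and 0 were separated. Ctrl 1 was below OK432 2 in all 18 and in all 10, and genes that move together in a library are not independent observations. H2-K1, a classical class I heavy chain, was at 274, 660 and 386 TPM in the controls and 318, 455 and 363 TPM in the treated libraries, where Ctrl 1 was the lowest of all 6. H2-Ab1, a class II chain, was at 60.8, 193 and 112 TPM and then 47.3, 88.9 and 76.3 TPM. Ctrl 2 was the highest library for all 18 class I genes, and without it the class I median was -0.07 and the class II median -0.22. Without Ctrl 1 they were -0.53 and -0.74.

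Markers of other immune cells were compared in the same way. Ly6c2, which marks inflammatory monocytes and responds to interferon, was at 14.4, 58.0 and 30.2 TPM in the controls and 5.99, 11.8 and 7.97 TPM in the treated libraries. The groups did not overlap, and the log2 change was -1.71 ± 0.558 (limma adjusted p = 0.928). Its neighbour Ly6c1 is a close copy, so reads may be shared between them. The other monocyte genes did not follow it evenly: of 13 tested 0 passed and Ly6c2 was the 1 with separated groups (5.28% over all tested genes lay below). The median log2 change was -0.14, or 0.06 without OK432 1 and -0.29 without Ctrl 1. Ccr2, the receptor that brings monocytes into tissue, was at 38.4, 59.6 and 45.0 TPM and then 31.4, 44.4 and 27.3 TPM.

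Macrophage genes overlapped between the groups with 1 exception. Of 17 tested 0 passed, and the median log2 change was 0.00 (-0.04 to 0.06 without 1 library). Adgre1, which encodes F4/80, was at 50.9, 51.4 and 42.8 TPM in the controls and 42.4, 56.0 and 51.1 TPM after OK-432. Mertk, a receptor for the uptake of dying cells, had separated groups, at 26.1, 22.3 and 23.5 TPM and then 20.8, 21.9 and 19.4 TPM. It was 1 of the 17, beside 5.28% over all tested genes with all treated libraries below all controls. Of 18 tested dendritic cell genes 0 passed, with a median of -0.17 (-0.26 without Ctrl 1). Clec9a, the receptor of cross-presenting dendritic cells, was at 11.8 to 13.3 TPM and then 9.50 to 11.8 TPM.

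Lymphocyte transcripts were scarce in both groups. Of 21 T cell genes 9 were tested and 0 passed, with a median log2 change of -0.21 that ranged from -0.36 to 0.13 when 1 library was left out and was above 0 without Ctrl 2 or OK432 1. Cd8a was at 0.280, 0.968 and 0.307 TPM in the controls and 0.123, 0.0979 and 0.776 TPM in the treated libraries. Of 10 tested killer cell genes 0 passed, with a median of -0.34 (-0.04 without Ctrl 2, -0.62 without Ctrl 1 and 0.06 over members at 5 TPM or more), and Klrd1, a receptor of natural killer cells, was at 3.66, 6.45 and 4.78 TPM and then 2.25, 3.69 and 3.78 TPM. For both lists the highest mean level was in Ctrl 2 and the lowest in OK432 1.

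**Figure D4:**
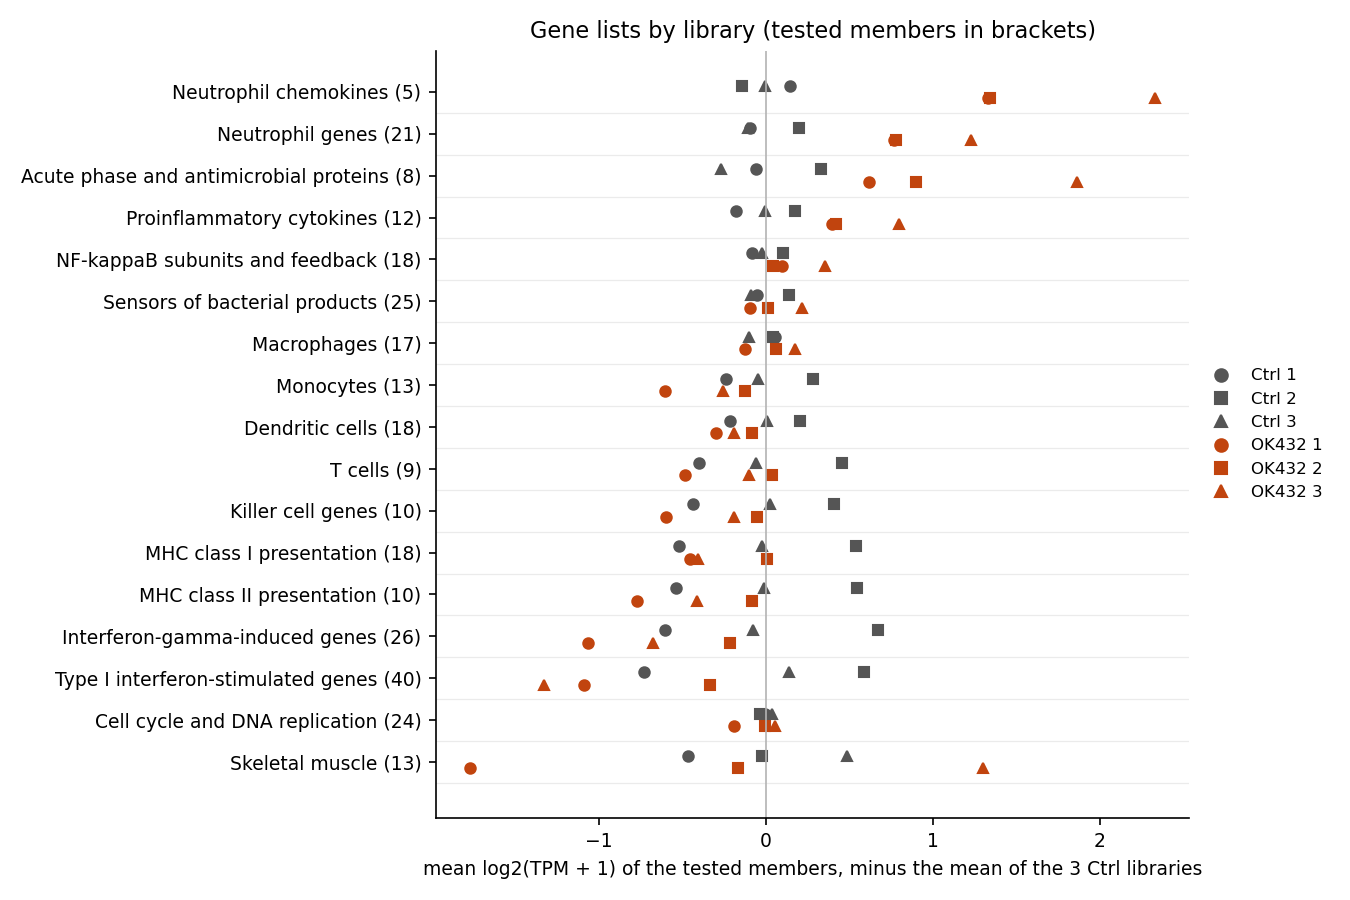
Mean log2(TPM + 1) of the tested members of 17 gene lists in each library, minus the mean of the 3 Ctrl libraries (x axis); grey symbols are Ctrl 1 to 3 and orange symbols OK432 1 to 3. The neutrophil chemokine, neutrophil, acute phase and cytokine lists have all 3 treated libraries to the right of all controls, the interferon lists overlap through Ctrl 1, and skeletal muscle spreads most widely among treated libraries.

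Among tumour cell and tissue genes, OK432 3 stood apart in the metalloproteinase list but not in the cell cycle list. Of 24 tested cell cycle genes 0 passed and the median log2 change was -0.05 (-0.10 to 0.02 without 1 library), with Mki67 at 100, 78.5 and 87.8 TPM in the controls and 73.3, 87.7 and 89.9 TPM in the treated libraries. Of 18 tested matrix metalloproteinases and inhibitors 0 passed and 4 were separated, all higher (4.8% over all tested genes). The median log2 change was 0.34, which without OK432 3 was 0.15. Mmp8 was 1 of the 4 and reached the filter only through the treated libraries, so it had to differ. Of the other 17, 3 were separated, and their median was 0.29. Timp1, an inhibitor named after its values were seen, was at 69.2, 70.4 and 67.2 TPM and then 81.7, 70.6 and 138 TPM. Ptn, a growth factor of nerve and stroma, was among the larger decreases in means with separated groups, at 27.5, 23.2 and 24.2 TPM and then 13.1, 21.2 and 13.3 TPM (-0.65 ± 0.177, limma adjusted p = 0.928).

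The LL2 response was compared with that of the 2 CT26-derived tumours by testing the difference of effects in 1 fit of all 18 libraries. That fit gives each gene 1 spread for all 6 groups, although the treated CT26NYESO1 libraries were far more variable. In it the LL2 changes of Lcn2 and S100a8 had limma adjusted p of 0.485 and 0.501. Its p-values are therefore not those of the LL2 libraries alone. Of 16816 tested genes 0 were called higher in LL2 and 1 lower (0.00595%), which was Eif3j2. At an unadjusted p under 0.05, 590 were higher and 458 lower, where a share of about 0.05 of the genes would be so if none differed. Csf3 had a log2 change of 2.65 in LL2, 0.32 in CT26 and 1.68 in CT26NYESO1. The LL2 effect exceeded the mean of the other 2 by 1.65 ± 0.460, which did not pass (limma adjusted p = 0.568). The log2 change of Slc13a3 was 1.59 in LL2, 0.17 in CT26 and 0.34 in CT26NYESO1, a difference of 1.34 (limma adjusted p = 0.478), and this difference was called when OK432 1 was left out. For S100a9 the changes were 3.16, 2.86 and 6.04, and for Lcn2 3.04, 2.46 and 3.90, in the same order of tumours. For Ifit1 they were -1.41, -0.35 and -0.31, with a difference of -1.08 that did not pass (limma unadjusted p = 0.0703).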

How the data were processed

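Bulk RNA-seq of 18 mouse tumours (6 groups of 3) was used, 6 of them LL2. TPM values were deposited by the authors as 1 table of 55291 genes. Per the submitters' processing notes the tools were Trim Galore 0.6.5, STAR 2.7.3a and StringTie 2.1.2 on mm10. Neither an annotation nor a strand setting nor a filter is given in the sources used here. Each library sums to 1000000 TPM, so the depth is unknown and no counting interval can be given, and a gene listed at 0 may be a failed estimate.

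From these values log2(TPM + 1) was computed, genes with at least 1 TPM in at least 3 of the 6 LL2 libraries were kept (14736), and treated and control libraries were compared with limma 3.58.1 in R 4.3.3 (empirical Bayes, trended and robust, 4 residual degrees of freedom), with Benjamini-Hochberg adjustment over all tested genes and a threshold of 0.05. The difference of effects between tumour types was 1 contrast in a fit of 6 groups. Groups called separated have no overlap between the 3 treated and the 3 control values. In a test on simulated data for the LL2 comparison, with 14736 genes, 91% of 100 genes changed by 1 on the log2 scale and 99% of 100 changed by 2 were recovered, with 3 false calls. The changed genes were drawn from those at 5 TPM or more, and the noise was independent between genes. More genes were changed than the real data called, which eases the adjustment. The rates therefore do not give the power of the real comparison.

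The text names every called gene, the 10 largest changes in each direction among genes whose groups were separated and whose higher group averaged 5 TPM or more, up to 3 members of each of 34 gene lists with the smallest p and each list's first tested member, called differences of effects, and a panel of known response genes. Not all of them are described, and 1 is not reported here. Genes of chromosome 18 are not described apart from Eif3j2, and list members under the filter appear by level only. The members, gene lists and tests were chosen with earlier results of these data known. Positions come from GENCODE M21, which held 53292 of the symbols, and promoters (chromosome 18 left out) from RefSeq on GRCm38.p6. The alternatives were other pseudocounts, filters, scalings, variance models and library sets.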

Additional observations from a re-analysis of the deposited data

Results flagged for a closer look

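Eif3j2, which encodes a form of a translation initiation factor subunit, was the 1 gene called in the test of the difference of effects between LL2 and the CT26-derived tumours. Genes that did not pass are not thereby shown to respond alike. The difference of log2 changes was -3.77 ± 0.0774 (SE; limma adjusted p = 7.20e-15). The LL2 controls were at 13.9, 13.9 and 13.04 TPM and the treated LL2 libraries were each listed at 0. Its mean went from 52.2 to 49.1 TPM in CT26 and from 31.4 to 29.2 TPM in CT26NYESO1. The gene has a near-identical copy, Eif3j1, and the part that read assignment between the copies had in this result was not tested.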

How the results depend on the processing

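Against 9 genes called higher and 2 called lower, a pseudocount of 0.1 gave 3 higher, no filter gave 1, plain empirical Bayes gave 5, the removal of Kctd12, Mir5130 and Eif3j2 (added after seeing the data) gave 1 higher and 0 lower, and the fit over all 18 libraries gave 2 higher and 1 lower; the cause was not tested. With the replicate block 4 were called higher and 4 lower. The deviations of same-numbered libraries correlated at 0.05, 0.24 and -0.01 across genes, and 1 of 3 numbers matched best with its own, so the numbers are not shown to pair the samples. In the test of the difference of effects the replicate block changed no count. Leaving out 1 library gave 1 to 13 genes called higher and 2 or 3 lower. Separated groups with at least 2-fold change numbered 23 higher and 5 lower, 41 and 13 with a pseudocount of 0.1, and 21 to 42 higher and 3 to 75 lower without 1 library (75 without Ctrl 1, 66 without OK432 2). For the difference of effects, leaving out 1 of the 18 libraries gave 0 to 2 genes higher (2 without OK432 1) and 1 or 2 lower. Some small changes, none past the test, turned sign. Cd274 (-0.00) was 0.0056 with a pseudocount of 0.1, 0.00903 on libraries rescaled by median of ratios and 0.016 on quantile-normalized values, and Csf1 was -0.036 with library weights. Without 1 library the ranges were -0.27 to 0.27 for Cd274, -0.088 to 0.081 for Csf1, -0.049 to 0.15 for Adgre1, -0.43 to 0.20 for H2-K1, -0.29 to 0.13 for Krt8, -0.17 to 0.0071 for Mki67, -0.17 to 0.19 for Tlr1 and -0.011 to 0.23 for Tnf. The other genes named with a fitted change kept their direction under all alternatives run, apart from Mmp9, Chil3 and Cybb, which were not followed through them. Over the alternatives other than leaving out a library, the adjusted p was 0.00590 to 0.148 for Csf3, 0.0147 to 0.501 for S100a8 and 0.00687 to 0.485 for Lcn2. TPM keeps no depth, so the precision of the values under 1 TPM is unknown.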
